A study of Homo sapiens with 6 samples.

Results

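The transcripts described are those of the SLC25 family, the mitochondrial carriers, in ovarian cancer cells. Every probe whose annotated gene symbol is SLC25A followed by a number was taken, with no use of its values, which gave 44 probes of 44 genes among 21448 transcript probes and 17687 named genes. Family members without a named probe were not analysed here.

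Mitochondrial carriers are proteins of the inner mitochondrial membrane, built from 3 repeats of a module with a pair of membrane-spanning helices, and most of them exchange a metabolite of the matrix for one of the cytosol. They pass ADP and ATP, phosphate, the acids of the citric acid cycle, amino acids, nucleotides, cofactors and iron. A few members sit elsewhere, such as SLC25A17 in peroxisomes and SLC25A46 in the outer mitochondrial membrane, and for several the substrate is not settled.

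RMG1, a cell line derived from clear cell carcinoma of the ovary, was transfected with siCPNE8 #A, siCPNE8 #B or siControl, and OVCAR3, a cell line derived from serous carcinoma of the ovary, was transfected with siBHLHE41 #A, siBHLHE41 #B or siControl. CPNE8 encodes a calcium-dependent phospholipid-binding protein and BHLHE41 a transcriptional repressor that binds E-boxes. Each condition was read on 1 Affymetrix Clariom S array, so that 3 arrays stood for RMG1 and 3 for OVCAR3. The labels put RMG1 in DMEM and OVCAR3 in RPMI and the study's methods name the reverse, so the lines differ in medium and in the siRNAs they received as well as in origin, and these cannot be told apart in a comparison of lines. Each histotype was thus represented by 1 line. Whether the arrays stand for separate cultures is given nowhere in the sources, and p-values therefore measure only the spread between these samples. Each array reads the RNA of many cells together, so that fewer cells with a transcript and less of it per cell cannot be told apart.

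Values are the deposited log2 levels. Background is the level below which 95% of an array's 612 negative control probes fell, and it lay between 7.86 and 8.47, and between 37.2% and 41.2% of the transcript probes exceeded it. Over all probes, r was 0.990 to 0.993 between arrays of a line and 0.938 to 0.943 between lines. siCPNE8 #A left 11.7% of the CPNE8 signal of siControl and #B left 27.8%, and siBHLHE41 #A left 35.0% of the BHLHE41 signal and #B left 54.2%. All 5 epithelial markers exceeded background on all arrays, whereas 0 of 5 immune and 0 of 4 endothelial markers did so on any array. Among stromal markers, 1 of 5 exceeded it, COL1A2, at a mean of 9.53 in RMG1 cells and 9.42 in OVCAR3 cells. Of 5 clear cell carcinoma markers with a named probe, 4 were higher in RMG1 (ANXA4, HAVCR1, SPP1 and VCAN), and NAPSA was above background on no array. Of 7 serous markers, 3 were called lower in RMG1 and 2 higher, with a log2 difference, RMG1 minus OVCAR3, of -2.65 for MUC16, 1.33 for PAX8 and 2.67 for MECOM. WT1 exceeded background on 0 of 3 RMG1 arrays and 2 of 3 OVCAR3 arrays and was at least 1.34-fold lower in RMG1 (adjusted p = 2.44e-06), and MSLN, also called lower, SOX17 and ESR1 were above background on no array.

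Of the 44 carrier transcripts, 29 exceeded background on at least 1 array, 18 did so on all 6, and 15 on none. These 15 included SLC25A31, the adenine nucleotide carrier of the testis, SLC25A18, a glutamate carrier, SLC25A20, the carnitine and acylcarnitine carrier, and SLC25A28, mitoferrin 2. Brightness differs between probes for reasons of sequence, so levels are compared here only within a probe. The share above background on at least 1 array was 65.9% of the members, beside 46.7% of all transcript probes.

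To ask how the carriers differ between the lines, the 3 RMG1 arrays were set against the 3 OVCAR3 arrays with limma, and a probe was called at a Benjamini-Hochberg adjusted p under 0.05 over all 21448 transcript probes. By this rule 8 members (18.2%) were higher in RMG1, beside 17.8% of all transcript probes, and 14 (31.8%) were lower, beside 19.2%. The share of members that were higher is close to that of the array as a whole. The 3 arrays of each line did not overlap for 12 members with RMG1 higher, beside 24% of all transcript probes, and for 16 with RMG1 lower, beside 24.5%. The median log2 difference over the members, RMG1 minus OVCAR3, was 0.003, beside 0.03 over all transcript probes, while the median size of the difference was 0.68, beside 0.40. Among probes above background on at least 1 array, 24.1% of the members were called higher, beside 28.7%, and 41.4% lower, beside 30.2%. The median size of the difference among them was 0.87, beside 0.74. A probe can pass this filter through its brighter line alone. Among the called members, SLC25A29, SLC25A30 and SLC25A37 passed it only through RMG1 and SLC25A43 only through OVCAR3. The filtered shares and sizes are therefore a description only.

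Of the 14 members called lower, 9 fell into 2 substrate classes. Of 9 carriers of nucleotides and cofactors other than adenine nucleotides, 5 were lower in RMG1 and 0 higher, and of 8 members with no settled substrate, 4 were lower and 0 higher. Carriers of amino acids, carnitine and glutathione went both ways, with 3 of 11 higher and 2 lower, and both iron carriers were higher. Adenine nucleotide and phosphate carriers had 1 higher and 1 lower of 7, carriers of di- and tricarboxylates 1 and 1 of 4, and the carriers named after uncoupling proteins 1 and 1 of 3. Over all transcript probes, 17.8% were called higher and 19.2% lower. The counts include SLC25A28 among the higher members and SLC25A52 and SLC25A53 among the lower, which were above background on no array. The classes were written with earlier results of these data known, so these counts are descriptions, and no class was tested.

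**Figure D1:**
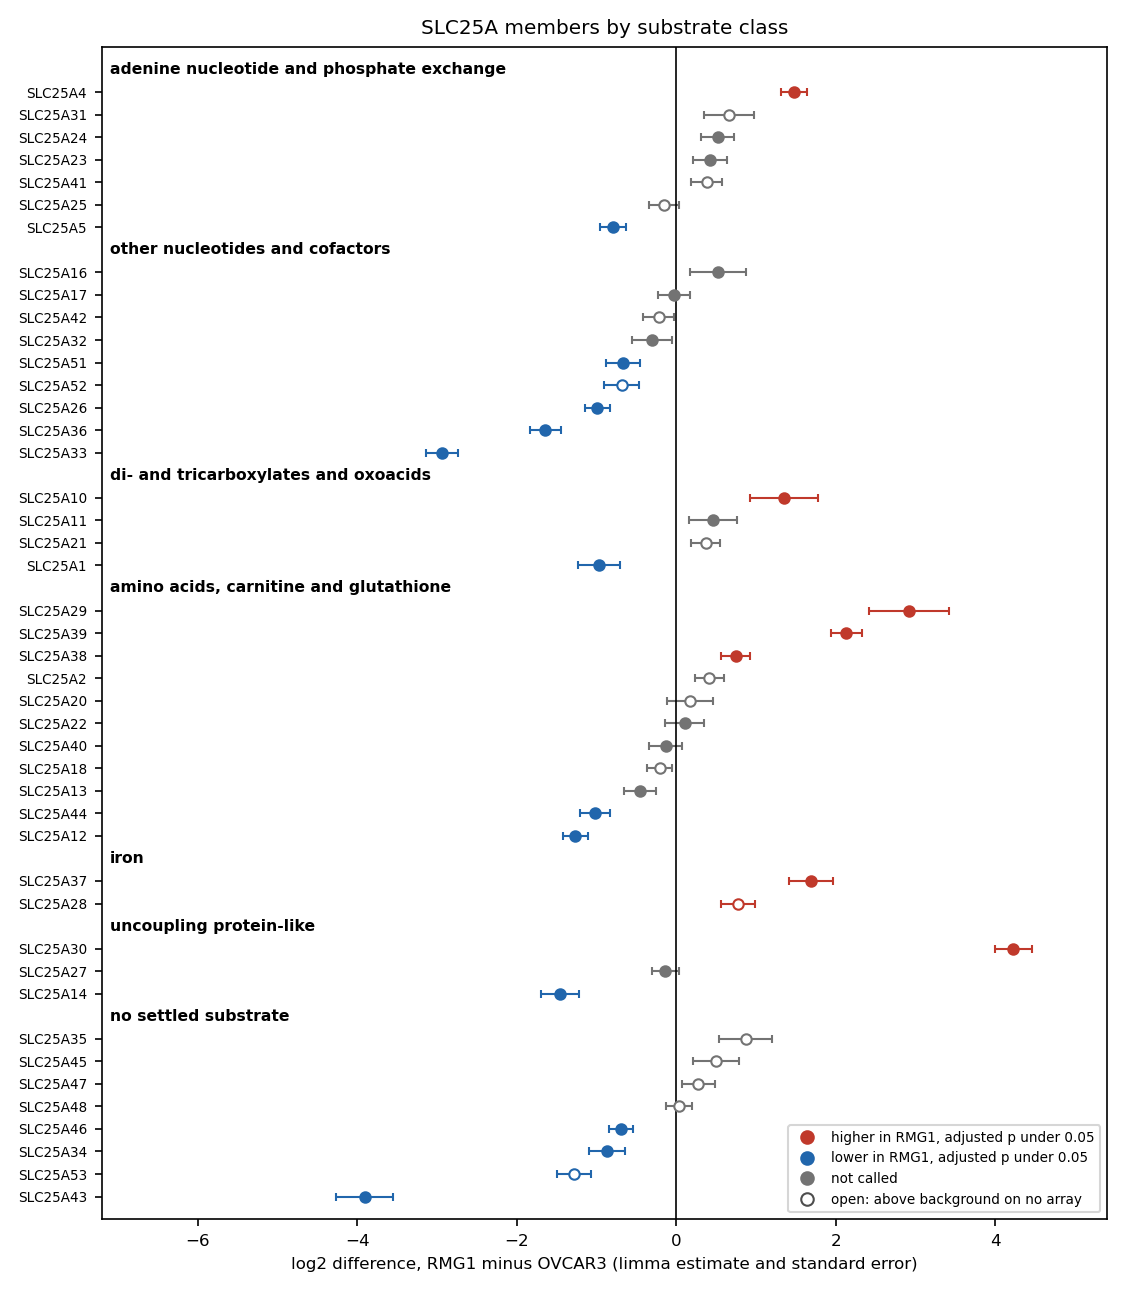
Log2 difference of each of the 44 members, RMG1 minus OVCAR3, with its standard error from limma, grouped by substrate class. Points to the right of 0 are higher in RMG1; in the class of other nucleotides and cofactors 5 of 9 lie to the left with an adjusted p under 0.05, and open circles mark the 15 members above background on no array.

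Sample values are given below as log2 levels in the order siRNA #A, siRNA #B and siControl of a line. Adenine nucleotide carriers exchange ADP for ATP across the inner membrane, and the 2 bright forms with a named probe differed in opposite directions. SLC25A6 and SLC25A3, also of the adenine nucleotide and phosphate class, had no named probe and were not analysed. SLC25A4, the form abundant in heart and skeletal muscle, read 13.74, 13.82 and 13.57 in RMG1 cells, against 12.34, 12.22 and 12.12 in OVCAR3 cells. It was 2.79-fold higher in RMG1 (log2 difference 1.48, standard error 0.16, adjusted p = 0.000109). SLC25A5, the form of proliferating cells, read 15.02, 14.97 and 15.00 in RMG1 cells, against 15.60, 15.91 and 15.84 in OVCAR3 cells. Its RMG1 arrays all lay below its OVCAR3 arrays, with a mean difference of -0.79 (standard error 0.16, adjusted p = 0.00422). SLC25A31 read between 3.54 and 4.80 in RMG1 cells and between 3.23 and 3.41 in OVCAR3 cells, below background throughout. The carriers that exchange ATP-Mg for phosphate, SLC25A23, SLC25A24, SLC25A25 and SLC25A41, differed by 0.42, 0.52, -0.15 and 0.38 and were not called; SLC25A25 and SLC25A41 were above background on no array.

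The lower values of the nucleotide and cofactor class were led by the carriers of pyrimidine nucleotides. SLC25A33, which brings pyrimidine nucleotides into mitochondria, read 8.70, 8.96 and 8.82 in RMG1 cells, against 11.53, 12.12 and 11.64 in OVCAR3 cells. It was 7.65-fold lower in RMG1 (log2 difference -2.94, standard error 0.20, adjusted p = 5.57e-06). SLC25A36, its close relative, read 11.13, 11.65 and 11.48 in RMG1 cells, against 12.84, 13.10 and 13.25 in OVCAR3 cells. The difference of -1.64 was again far beyond the spread within either line (standard error 0.20, adjusted p = 0.000188). SLC25A26, which imports S-adenosylmethionine, read 9.36, 9.31 and 9.29 in RMG1 cells, against 10.28, 10.20 and 10.45 in OVCAR3 cells, a difference of -0.99 (standard error 0.16, adjusted p = 0.0010). SLC25A51, the NAD+ carrier, read 9.00, 8.93 and 8.56 in RMG1 cells, against 9.47, 9.18 and 9.82 in OVCAR3 cells, and its difference of -0.66 was called with an adjusted p of 0.0364. This call rested on single arrays: the adjusted p was 0.121 without RMG1 siControl, 0.0653 without siCPNE8 #B, 0.120 without OVCAR3 siControl and 0.0823 without siBHLHE41 #A. SLC25A52, a near copy of SLC25A51, was called lower at -0.69 but was above background on no array. The peroxisomal SLC25A17 differed by -0.03, the folate and FAD carrier SLC25A32 by -0.30 and the coenzyme A carrier SLC25A42 by -0.22, and none of these was called.

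The promoters of SLC25A33 and SLC25A36 are shown because these relatives differed between the lines in the same direction, and that of SLC25A11 because it passed the ratio with all 4 siRNAs below. The sequences are RefSeq's for GRCh38.p14, from 250 bases before to 50 bases after an annotated start, at chr1:9539215-9539514 on the plus strand for SLC25A33, chr3:140941586-140941885 on the plus strand for SLC25A36 and chr17:4939997-4940296 on the minus strand for SLC25A11. Capitals mark every match, on either strand, to an E-box (CACGTG), a cyclic AMP response element (TGACGTCA) or an NRF1 motif (GCGC and TGCGC with any 1 base between them). The GC box, GGGCGG, the TATA box, TATAAA, and the CCAAT box were searched as well and are in capitals where found, and the matches shown do not overlap each other.
SLC25A33: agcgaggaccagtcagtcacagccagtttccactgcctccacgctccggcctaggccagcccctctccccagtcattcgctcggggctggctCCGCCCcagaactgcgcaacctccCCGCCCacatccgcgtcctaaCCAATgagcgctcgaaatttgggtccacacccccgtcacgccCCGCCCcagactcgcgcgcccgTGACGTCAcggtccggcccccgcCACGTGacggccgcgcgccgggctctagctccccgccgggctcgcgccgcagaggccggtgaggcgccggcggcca
SLC25A36: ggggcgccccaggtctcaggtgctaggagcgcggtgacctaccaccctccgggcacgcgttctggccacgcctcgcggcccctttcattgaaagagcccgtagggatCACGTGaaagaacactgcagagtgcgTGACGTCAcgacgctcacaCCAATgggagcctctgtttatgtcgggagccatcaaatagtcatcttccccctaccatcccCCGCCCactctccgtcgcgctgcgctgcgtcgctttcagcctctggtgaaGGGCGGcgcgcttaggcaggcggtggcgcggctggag
SLC25A11: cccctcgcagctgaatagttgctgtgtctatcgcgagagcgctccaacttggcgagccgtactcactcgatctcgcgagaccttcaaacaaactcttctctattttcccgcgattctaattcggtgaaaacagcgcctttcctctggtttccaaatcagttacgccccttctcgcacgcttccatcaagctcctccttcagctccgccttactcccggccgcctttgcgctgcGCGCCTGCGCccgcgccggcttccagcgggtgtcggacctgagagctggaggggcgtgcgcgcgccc

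The SLC25A33 promoter held a cyclic AMP response element at -49 and an E-box at -26 relative to the start, and the SLC25A36 promoter held them at -117 and -143, with CCAAT at -113 and -98. Among the 47 promoters found for 37 of the member genes, 2 held both an E-box and a cyclic AMP response element, as did 57 (0.162%) of all 35116 promoters of the same length. These 2 are the promoters of SLC25A33 and SLC25A36, which were picked by their values, so the shares are a description only. The promoters of SLC25A39 and SLC25A43, which also differed between the lines, held neither motif. An E-box was in 19.1% of the member promoters and in 7.26% of all promoters, and a cyclic AMP response element in 6.38% of the member promoters and in 1.85% of all. The SLC25A11 promoter held an NRF1 motif at -17, a motif in 8.51% of the member promoters and in 5.78% of all promoters. GC boxes were in 63.8% of the member promoters and 45% of all promoters, CCAAT in 42.6% of the member promoters and 34.6% of all, and TATAAA in 8.51% of the member promoters and 11.5% of all. A match of letters is not a bound site.

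Carriers of citric acid cycle acids were called in both directions, each close to the threshold. SLC25A10, which exchanges malate or succinate for phosphate, read 8.46, 9.45 and 8.70 in RMG1 cells, against 6.62, 8.42 and 7.53 in OVCAR3 cells, where 1 of 3 arrays exceeded background. The lowest RMG1 array and the highest OVCAR3 array were 0.04 apart. With the OVCAR3 arrays below background set to their background, SLC25A10 was 1.43-fold higher in RMG1. The difference of 1.35 (standard error 0.43) had an adjusted p of 0.0347, which became 0.0603 without RMG1 siControl, 0.123 without siCPNE8 #B, 0.0825 without OVCAR3 siControl and 0.102 without siBHLHE41 #A. SLC25A1, which exports citrate to the cytosol, read 8.28, 8.29 and 7.63 in RMG1 cells, against 8.99, 9.46 and 8.66 in OVCAR3 cells. It was lower in RMG1, with a difference of -0.97 (standard error 0.26, adjusted p = 0.0164), with an adjusted p of 0.0548 without RMG1 siControl and 0.0572 without siBHLHE41 #B. With the RMG1 siControl array, which was below background, set to its background, SLC25A1 was 1.81-fold lower in RMG1. SLC25A11, the carrier of 2-oxoglutarate and malate, overlapped between the lines and was not called (log2 difference 0.46, adjusted p = 0.289).

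Carriers of amino acids and glutathione were called in both directions. SLC25A39, which imports glutathione, read 10.30, 9.96 and 10.18 in RMG1 cells, against 7.80, 8.30 and 7.93 in OVCAR3 cells, where 1 of 3 arrays exceeded background. The measured log2 difference was 2.13 (standard error 0.19, adjusted p = 3.07e-05), and with the OVCAR3 arrays below background set to their background it was 3.56-fold higher in RMG1, while SLC25A40, its closest relative, differed by -0.13 and was not called. SLC25A29, a carrier of arginine and lysine, read 9.60, 8.27 and 7.38 in RMG1 cells, against 5.02, 6.09 and 5.41 in OVCAR3 cells. Only the RMG1 arrays with siCPNE8 exceeded background, and SLC25A29 was at least 1.16-fold higher in RMG1 (adjusted p = 0.00155); a fold written "at least" sets the mean of the brighter line against the background of the dimmer line. Without siCPNE8 #A the RMG1 mean was 7.83, under the mean OVCAR3 background of 8.21, so that no bound remained, although SLC25A29 was still called (adjusted p = 0.00181), and between the siControl arrays alone it was not called (adjusted p = 0.116). SLC25A38, needed for glycine import in heme synthesis, read 12.31, 12.33 and 12.53 in RMG1 cells, against 11.35, 11.84 and 11.75 in OVCAR3 cells, a difference of 0.74 (standard error 0.19, adjusted p = 0.0115).

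The aspartate-glutamate carriers of the malate-aspartate shuttle were lower or not called in RMG1. SLC25A12 read 9.66, 9.67 and 9.56 in RMG1 cells, against 10.96, 10.78 and 10.95 in OVCAR3 cells, with a difference of -1.27 and little spread in either line (standard error 0.16, adjusted p = 0.000211). SLC25A13 read 12.33, 12.80 and 12.90 in RMG1 cells, against 12.99, 13.12 and 13.30 in OVCAR3 cells, and its difference of -0.46 was not called (adjusted p = 0.108). SLC25A44, a carrier of branched-chain amino acids, read 10.08, 9.75 and 9.68 in RMG1 cells, against 10.99, 10.62 and 10.94 in OVCAR3 cells, a difference of -1.02 (standard error 0.19, adjusted p = 0.00228). The glutamate carriers SLC25A22 and SLC25A18 differed by 0.10 and -0.21 and the carnitine carrier SLC25A20 by 0.18, with none called.

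Both mitoferrins, which import iron for heme and iron-sulfur clusters, were called higher in RMG1, although both were dim. SLC25A37, mitoferrin 1, read 7.95, 8.74 and 9.14 in RMG1 cells, against 6.91, 6.92 and 6.93 in OVCAR3 cells. It exceeded background on all 3 RMG1 arrays and no OVCAR3 array and was at least 1.32-fold higher in RMG1 (adjusted p = 0.00119). SLC25A28, mitoferrin 2, read 6.86, 7.21 and 7.19 in RMG1 cells, against 5.96, 6.64 and 6.34 in OVCAR3 cells. No array exceeded background for SLC25A28, so no fold is given, and its adjusted p of 0.0182 became 0.0576 without RMG1 siControl, 0.0635 without siCPNE8 #B and 0.0652 without siBHLHE41 #A.

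Wide gaps were also found in members with less settled functions. SLC25A30, a relative of the uncoupling proteins described in kidney, read 12.08, 11.72 and 11.16 in RMG1 cells, against 7.43, 7.54 and 7.31 in OVCAR3 cells, where no array exceeded background. It was at least 10.9-fold higher in RMG1 (adjusted p = 1.80e-06). SLC25A43, whose substrate is not settled, read 5.71, 7.10 and 6.84 in RMG1 cells, with no array above background, against 10.02, 10.81 and 10.54 in OVCAR3 cells. It was at least 5.83-fold lower in RMG1 (adjusted p = 3.60e-05).

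The other called members of these classes were lower in RMG1. SLC25A14, another relative of the uncoupling proteins, read 7.70, 8.04 and 7.47 in RMG1 cells, with 1 array above background, against 9.48, 9.32 and 8.76 in OVCAR3 cells, a difference of -1.45 (standard error 0.24, adjusted p = 0.00112). SLC25A34 read 7.81, 7.97 and 7.25 in RMG1 cells, with 1 array above background, against 8.71, 8.28 and 8.65 in OVCAR3 cells. Its difference was -0.87 with an adjusted p of 0.0143, or 0.0541 without siBHLHE41 #A. With the RMG1 arrays below background set to their background, SLC25A14 was 2.32-fold and SLC25A34 1.51-fold lower in RMG1. SLC25A46, which acts in mitochondrial dynamics, read 12.28, 12.38 and 12.41 in RMG1 cells, against 13.02, 13.05 and 13.09 in OVCAR3 cells, a difference of -0.69 with almost no spread within a line (standard error 0.15, adjusted p = 0.00589). SLC25A53, at 4.41 to 5.03 in RMG1 cells and 5.83 to 6.25 in OVCAR3 cells, was called lower at -1.28 but was above background on no array.

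**Figure D2:**
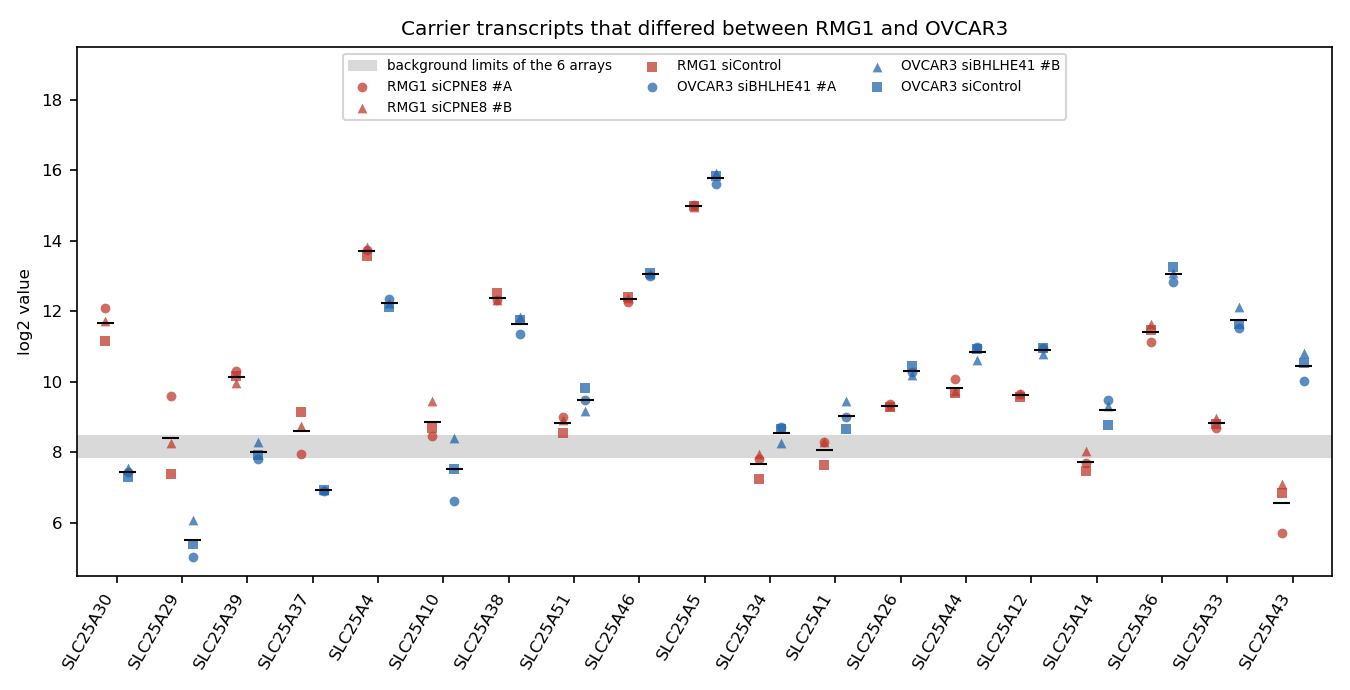
Log2 levels of the 19 members with an adjusted p under 0.05 and at least 1 array above background, ordered by the difference RMG1 minus OVCAR3. Each symbol is 1 array, black lines are means of 3 arrays and the grey band spans the background limits of the 6 arrays; SLC25A30 stands at 11.16 to 12.08 in RMG1 and below the band in OVCAR3, and SLC25A43 stands below the band in RMG1 and at 10.02 to 10.81 in OVCAR3.

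By position, the 4 members on the X chromosome, SLC25A5, SLC25A14, SLC25A43 and SLC25A53, were all called lower in RMG1. Of 712 named probes of that chromosome, 25.1% were called lower and 11.5% higher. SLC25A43 and SLC25A5 are neighbours there, whereas 2 other pairs of neighbouring members differed from each other in their calls or were not called: SLC25A29 was higher in RMG1 and SLC25A47 was not called, and neither SLC25A41 nor SLC25A23 was called. With 4 members this is a description only, and the copy number of the chromosome in these cells was not tested.

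Other genes of mitochondrial transport give the setting of these values, and were chosen for their function. Their counts stand beside 17.8% called higher and 19.2% called lower over all transcript probes. Among transcript probes above background on at least 1 array, the shares were 28.7% and 30.2%. No list was tested. Of 5 genes of the carrier family with other symbols, UCP2 was higher in RMG1 (log2 difference 2.36, adjusted p = 0.000926), and MTCH1 (-2.33, adjusted p = 2.64e-05) and MTCH2 (-0.48, adjusted p = 0.0360) were lower. Numbers in brackets after a gene are log2 differences, RMG1 minus OVCAR3, in this and the following paragraphs on other genes. Of 18 other transporters and channels of the mitochondrial membranes, 9 were higher and 2 lower; the sideroflexins SFXN5 (1.65) and SFXN4 (1.03) and the pyruvate carrier subunit MPC2 (1.47) were higher, and SFXN3 (at least 3.23-fold, as RMG1 was below background) and the porin VDAC3 (-0.76) were lower. Of 12 genes that bring carriers into the inner membrane, 5 were higher, led by TOMM40 (2.28), TIMM13 (1.18) and TIMM10 (0.96), and 2 were lower, TIMM8A (-2.20) and TOMM70 (-0.91). TOMM40 is the pore of the outer membrane and TOMM70 its receptor for carrier precursors, and they went in opposite directions.

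The enzymes that share substrates with the carriers were also called both ways. In the malate-aspartate and glycerophosphate shuttles, 2 of 7 genes were higher in RMG1, the cytosolic GOT1 (0.88) and MDH1 (0.67), and 2 were lower, the mitochondrial MDH2 (-1.46) and the cytosolic GPD1L (-1.58). Of 9 enzymes around citrate, malate and acetyl-CoA, in the cytosol or in mitochondria, 4 were higher and 2 lower. ACLY, ATP citrate lyase (1.71), and ACACA, acetyl-CoA carboxylase (1.97), were higher, while FASN, fatty acid synthase (-0.75), was lower. The isocitrate dehydrogenases went opposite ways, with the mitochondrial IDH2 at least 8.00-fold higher in RMG1 and the cytosolic IDH1 (-2.41) lower.

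Of 9 enzymes of carnitine and glutamate metabolism, 3 were higher and 3 lower, among them GLUD1 (0.78), ALDH18A1 (0.50), CPT1A (-1.77) and OAT (-0.79). The counts include PYCR1 among the higher, above background on 2 RMG1 arrays and no OVCAR3 array, and CRAT among the lower, above background on no array. Of 8 enzymes of mitochondrial folate and glycine metabolism, 2 were higher, MTHFD1L (1.29) and MTHFD2 (1.19), and 2 lower, including GLDC (-1.04). The other lower gene, ALDH1L2, exceeded background on 1 OVCAR3 array and no RMG1 array. Among 8 enzymes of iron-sulfur cluster and heme synthesis, 1 was called, NFS1 (-0.58). Of 9 regulators of mitochondrial gene expression, 5 were lower and 0 higher, beside 19.2% and 17.8% of all transcript probes. PPARGC1A, a coactivator of mitochondrial biogenesis, was at least 1.75-fold lower in RMG1 and GABPA (-0.88) was lower, while the other 3 were above background on no array. The transcript of NRF1 itself differed by 0.02.

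To ask which carriers moved with knockdown, each siRNA array was divided by the line's own siControl array, and a member was counted where the ratio was over 1.5 or under 0.66 with both siRNAs. The ratios of a line share 1 siControl array, so a low or high control moves both. In RMG1 cells 7 of the 44 members passed 1.5-fold with siCPNE8 #A and #B, beside 2.56% of all transcript probes, and 1 was under 0.66-fold, beside 2.69%. Of the 7, 2 exceeded background on the siControl array, SLC25A11 and SLC25A16, and 2, SLC25A1 and SLC25A29, did so with siCPNE8 and not with siControl. SLC25A20, SLC25A35 and SLC25A45, all past 1.5-fold, and SLC25A31, under 0.66-fold, were above background on no RMG1 array. In OVCAR3 cells 2 passed 1.5-fold with siBHLHE41 #A and #B, beside 3.09%, and 1 was under 0.66-fold, SLC25A35, beside 2.13%. Both of the 2 exceeded background on the siControl array as well, and SLC25A35 was above background on no OVCAR3 array.

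limma called 0 members and 0% of all transcript probes in either line at an adjusted p under 0.05. At an unadjusted p under 0.05 it had 8 members with siCPNE8, beside 5.51% of all transcript probes, and 3 with siBHLHE41, beside 5.12%. Among the 29 members above background on at least 1 array, the counts were 4 and 2, beside 507 and 565 of 10007 transcript probes. SLC25A20, SLC25A31, SLC25A35 and SLC25A45 with siCPNE8, and SLC25A35 with siBHLHE41, were above background on no array. Only 2 residual degrees of freedom remain in this fit, 1 for each pair of siRNAs.

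SLC25A11, the carrier of 2-oxoglutarate and malate, was the only member over 1.5-fold with all 4 siRNAs, as were 50 (0.233%) of all transcript probes. In RMG1 cells it read 11.18 with siCPNE8 #A and 11.14 with #B, against 10.32 with siControl, and its log2 ratio averaged 0.84 ± 0.03 (SD, n = 2 siRNAs). In OVCAR3 cells it read 10.83 with siBHLHE41 #A and 10.54 with #B, against 9.89 with siControl, with a log2 ratio that averaged 0.79 ± 0.21 (SD, n = 2 siRNAs). In each line the siControl array lay below both siRNA arrays, and limma gave an adjusted p of 0.894 in RMG1 and 0.945 in OVCAR3. UCP2, outside the SLC25A symbols but of the same family, also passed 1.5-fold with all 4 siRNAs, with log2 ratios of 0.77 and 0.76 in RMG1 cells and 0.95 and 1.51 in OVCAR3 cells.

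The other 3 members over 1.5-fold in RMG1 and above background there were within the ratio or split in OVCAR3. SLC25A16, linked to coenzyme A in mitochondria, read 11.58 with siCPNE8 #A and 10.92 with #B, against 10.00 with siControl. The log2 ratio averaged 1.25 ± 0.47 (SD, n = 2 siRNAs), beside -0.12 and -0.34 with the siBHLHE41 siRNAs in OVCAR3. Its 3 OVCAR3 arrays, at 10.35, 10.12 and 10.46, lay between the RMG1 siControl and siCPNE8 arrays. The line difference of 0.52 for SLC25A16 was not called, was -0.46 between the siControl arrays alone and was 0.94 without RMG1 siControl (adjusted p = 0.0191). For SLC25A29 the log2 ratios were 2.22 (#A) and 0.89 (#B), and as its siControl value was below background these are bounded as at least 3.09-fold and at least 1.23-fold over the background of that array. SLC25A1, the citrate carrier, had log2 ratios of 0.65 and 0.66 with siCPNE8, at least 1.24-fold over background with each, and 0.34 and 0.80 with siBHLHE41.

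In OVCAR3 cells the second member over 1.5-fold was SLC25A23, an ATP-Mg and phosphate carrier regulated by calcium. It read 8.92 with siBHLHE41 #A and 8.95 with #B, against 8.27 with siControl, and 9.20, 9.04 and 9.17 in RMG1 cells. Its log2 ratio in OVCAR3 averaged 0.66 ± 0.02 (SD, n = 2 siRNAs), and in RMG1 it stayed within the limits. Just inside the threshold, whose log2 is 0.58, were SLC25A1 in RMG1, at 0.65 with #A, and SLC25A23 #A and SLC25A11 #B in OVCAR3, each at 0.64. Just outside it were SLC25A30 at 0.92 and 0.56 and SLC25A34 at 0.56 and 0.72 in RMG1, and SLC25A14 at 0.71 and 0.56 in OVCAR3.

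Several other members passed a limit with 1 siRNA of a line and not with the other, or opposite limits with #A and #B. For SLC25A10 the log2 ratio was -0.25 (siCPNE8 #A) and 0.75 (siCPNE8 #B) in RMG1, and -0.91 (siBHLHE41 #A) and 0.89 (siBHLHE41 #B) in OVCAR3. Its OVCAR3 siControl and siBHLHE41 #A arrays were below background, and siBHLHE41 #B was at least 1.19-fold over the background of the siControl array. SLC25A37 had -1.19 and -0.40 in RMG1, SLC25A32 had -0.84 and -0.18, and SLC25A22 had -0.68 and -0.33, so that each was under 0.66-fold with #A alone. For SLC25A22 the siCPNE8 #A array was below background. The median log2 ratio over the 44 members was 0.11 with siCPNE8 #A and 0.14 with #B, beside 0.001 and -0.01 over all transcript probes, and -0.11 with siBHLHE41 #A and -0.001 with #B, beside -0.01 and -0.01.

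Several carriers above background in both lines had ratios near 1. SLC25A5 had log2 ratios of 0.02 and -0.03 with siCPNE8 and -0.24 and 0.07 with siBHLHE41, and SLC25A4 had 0.18 and 0.25 with siCPNE8 and 0.22 and 0.10 with siBHLHE41. SLC25A12 lay between -0.17 and 0.10 and SLC25A46 between -0.14 and -0.03 with the 4 siRNAs. Of the 9 members with an E-box in a promoter, 0 passed either limit with siBHLHE41 #A and #B together, beside 3.09% of all transcript probes over 1.5-fold and 2.13% under 0.66-fold, shares at which a count of 0 among so few shows nothing particular to them. Their log2 ratios ran between -0.42 and 0.29 with #A and between -0.63 and 0.74 with #B.

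**Figure D3:**
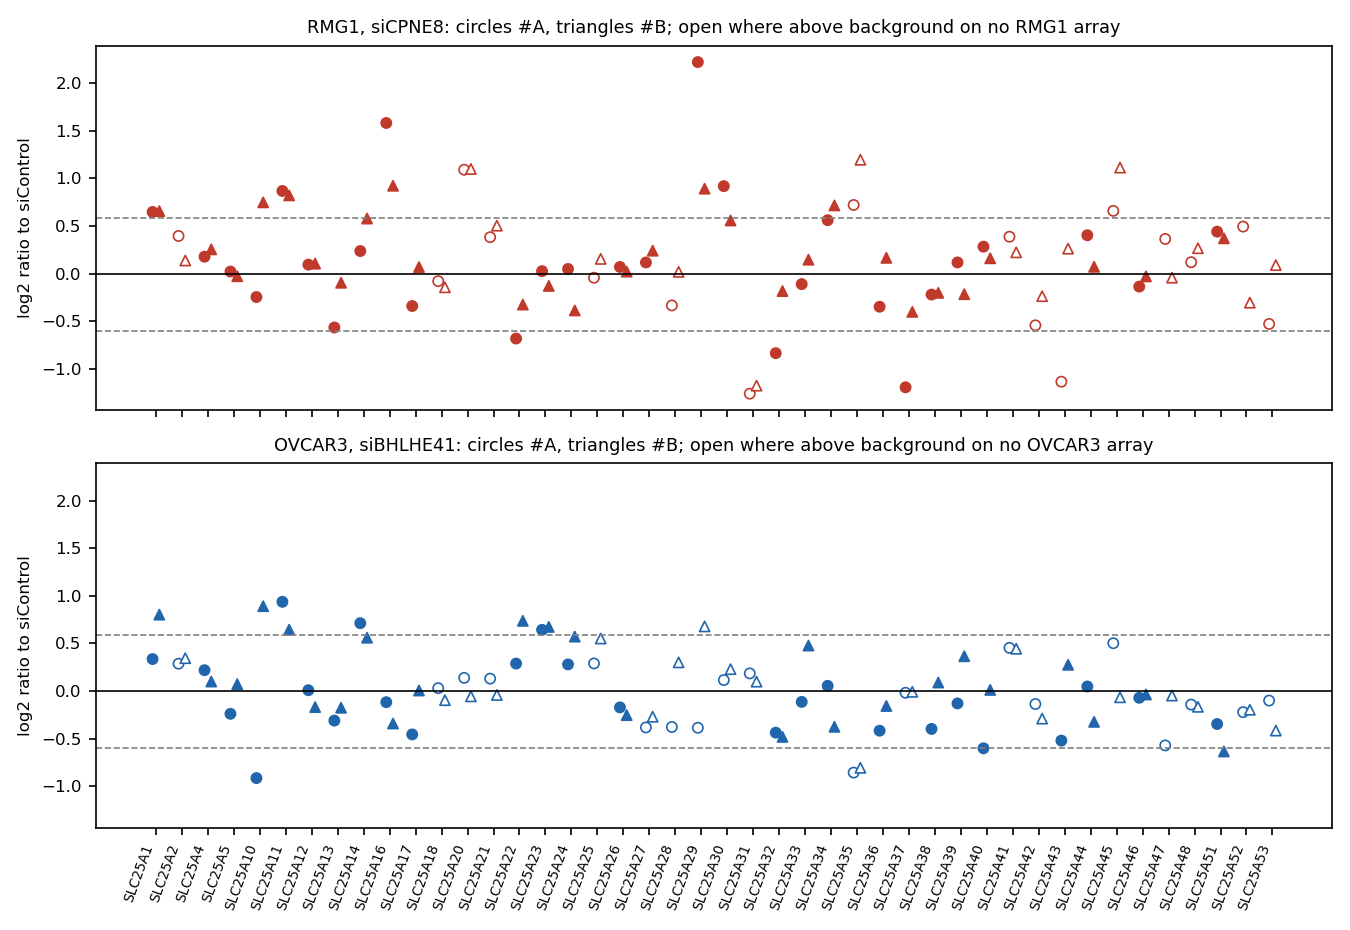
Log2 ratio of each of the 44 members to the siControl array of its line, with siCPNE8 in RMG1 above and siBHLHE41 in OVCAR3 below. Circles are siRNA #A and triangles #B, open where no array of the line exceeded background, and dashed lines mark ratios of 1.5 and 0.66; SLC25A29 with siCPNE8 #A is the highest point, at 2.22, and SLC25A11 lies above the upper line with all 4 siRNAs.

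**Figure D4:**
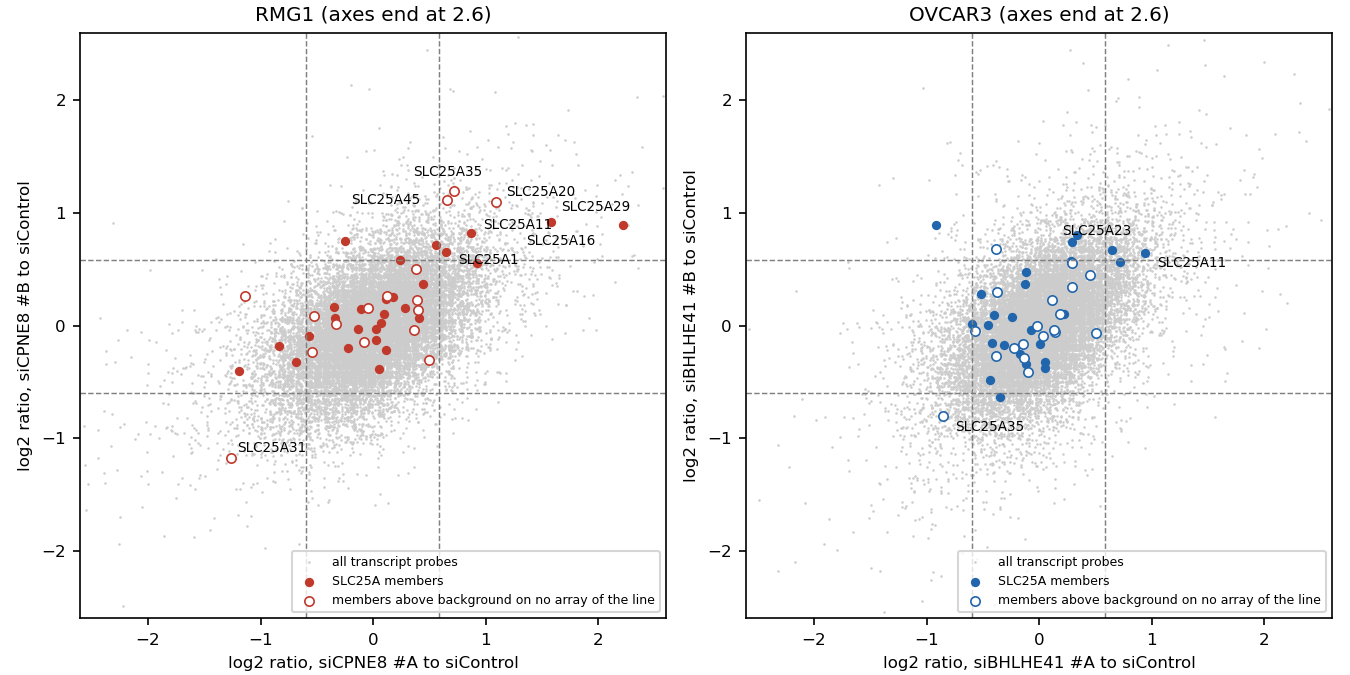
Log2 ratio to siControl with siRNA #A on the horizontal axis and #B on the vertical axis, for the 44 members over all transcript probes in grey, with RMG1 on the left and OVCAR3 on the right. Labelled members are past the ratio with both siRNAs, 8 in RMG1 and 3 in OVCAR3; both axes of a panel use the same siControl array.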

How the data were processed

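The authors deposited log2 values of 6 Affymetrix Clariom S arrays for 21448 transcript and 2903 control probes, made with RMA in Affymetrix Expression Console according to the submitters' processing notes, with versions not given in the sources used here. Total RNA was isolated with ISOGEN. The highest values, 17.7 to 18.4, lie above the range of a 16-bit scanner, so a further rescaling that no source describes may stretch or shrink log2 differences. Symbols came from the platform annotation, with 17709 probes carrying 1 symbol and 3739 transcript probes unnamed here, and all 44 members matched RefSeq by gene identifier. Members were taken by symbol alone, whereas the substrate classes and the lists of other genes were written with earlier results of these data known.

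Lines were compared with limma 3.58.1 (lmFit and eBayes, R 4.3.3) over 3 arrays each, p-values adjusted by Benjamini-Hochberg across all transcript probes, and knockdowns with ratios to siControl and a limma fit of 4 groups. Simulated data with 200 altered probes, with spreads drawn from limma's own fitted prior, were run through both fits. Such data cannot show how single control arrays or shared cultures would affect the calls. The number of arrays limits the precision. A line below background on all 3 arrays gives a fold only as a bound, the mean of the brighter line over, for each array of the dimmer line, the higher of its background and the probe's own value. Named members were a fixed set of transporters, up to 12 per direction called and above background on all 3 arrays of the brighter line, and those past the ratio with both siRNAs; SLC25A17, SLC25A24, SLC25A32, SLC25A40 and others given for a class, as pairs or at a threshold were chosen after their values were seen. Of each list of other genes, up to 3 per direction are named. Alternatives were the siControl arrays alone, quantile normalization, median centring, dim probes left out, a variance trend, control probes kept, other thresholds and each array left out.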

Additional observations from a re-analysis of the deposited data

How the results depend on the processing

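The counts of members called between the lines, 8 higher and 14 lower in RMG1, lay between 6 and 9 and between 11 and 14 when each array was left out in turn. With the siControl arrays alone, 5 were higher, 4 of them shared, and 8 were lower, all of them shared; with a log2 difference of at least 1 as well, 7 were lower. The siControl comparison has 1 array per line and fewer calls over all probes, and the lone arrays are assumed to vary like the siRNA pairs. With siCPNE8 the count over 1.5-fold was 1 at a ratio of 2 and 4 with dim probes left out, a filter that SLC25A1 and SLC25A29 passed only with siCPNE8, and lay between 8 and 9 with either siRNA alone; the count under 0.66-fold was 0 with dim probes left out and lay between 1 and 5. With siBHLHE41 the count over 1.5-fold was 0 at a ratio of 2 and lay between 3 and 6 with either siRNA alone, and the count under 0.66-fold was 0 at a ratio of 0.5 and 0 with dim probes left out, and lay between 2 and 3. At an unadjusted p under 0.05, limma had 8 members with siCPNE8 and 3 with siBHLHE41, of which 4 and 2 were above background on at least 1 array. Between the siControl arrays alone, SLC25A16 turned to -0.46 and SLC25A20 to -0.53; with each array left out in turn SLC25A20 lay between -0.00808 and 0.54 and SLC25A22 between -0.0668 and 0.30; none of these was called. Of the named members called, SLC25A1, SLC25A5, SLC25A10, SLC25A28, SLC25A29, SLC25A38, SLC25A44 and SLC25A46 kept their direction but not their call between the siControl arrays alone, SLC25A51 had an adjusted p of 0.0593 with median centring, and SLC25A10 had 0.0524 with control probes kept. No scaling moved the median over all probes by more than 0.10. No paired analysis was possible because the siRNAs of the lines have different targets and #A and #B name siRNAs, not shared cultures.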
